A study of Mus musculus with 20 samples.

Results

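The genes described here encode the proteins of the cytosolic ribosome. They were chosen by symbol alone: every gene of the deposited table named Rpl or Rps with a number and at most a short letter or digit suffix, plus Rplp0, Rplp1, Rplp2 and Rpsa, without symbols that end in l1 or carry the pseudogene mark ps. This gave 78 of the 59311 genes in the table, 46 of the large subunit and 32 of the small subunit.

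The libraries came from 10 male C57BL/6 mice (C57BL/6J in the methods), 10 to 12 weeks old, all with liver fibrosis after intraperitoneal CCl4 (0.6 ml/kg) for 4 weeks. Ac-6-FP, which occupies MR1 and keeps mucosal-associated invariant T (MAIT) cells inactive, was injected into mice 16 to 20 at 0.25 mg/kg, and its vehicle, DMSO in PBS, into mice 11 to 15. Dosing began before the last CCl4 injection and was repeated daily for 2 days after it, and no library comes from an uninjured liver. From each liver, monocyte-derived macrophages (MoMac), gated as CD11b+ F4/80+ cells without Ly6G, CD11c or CD3, were sorted into Ly6Chi and Ly6Clo cells, which gave 20 libraries, 5 in each of 4 groups. The study asked how stopping MAIT cell activation changes these macrophages. For the ribosomal protein genes this becomes 3 comparisons, Ly6Chi with Ly6Clo within each mouse, Ac-6-FP with vehicle within each subset, and the Ac-6-FP change in Ly6Chi with that in Ly6Clo.

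A ribosome joins a small 40S subunit, which reads the mRNA, to a large 60S subunit, which forms the peptide bond. Cells make the proteins of both in near-equal amounts, and their mRNAs are among the most abundant and steadiest of any cell. Most of these mRNAs start with an unbroken stretch of pyrimidines, the terminal oligopyrimidine (TOP) motif, through which mTORC1 and Larp1 set how much of the mRNA is translated, so that an mRNA level need not follow the protein output.

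The start regions of 58 of the 78 genes are held in the RefSeq promoter table (GRCm38.p6), which gives 250 bases before and 50 after each start. A few are shown because the results turn on these genes, and Rps6 because its protein is the classic target of the mTORC1 pathway. Each line gives 30 bases before and 20 after the start in the direction of transcription, and capitals mark runs of at least 6 unbroken C or T.
Rpl41, chr10:128549149-128549198, minus strand: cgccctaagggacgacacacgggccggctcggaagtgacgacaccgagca
Rpl35, chr2:39005112-39005161, minus strand: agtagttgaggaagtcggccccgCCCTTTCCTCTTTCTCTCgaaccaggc
Rps27l, chr9:66946056-66946105, plus strand: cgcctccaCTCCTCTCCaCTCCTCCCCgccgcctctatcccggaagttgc
Rpl18, chr7:45718041-45718090, plus strand: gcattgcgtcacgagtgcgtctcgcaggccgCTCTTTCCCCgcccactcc
Rps25, chr9:44407684-44407733, plus strand: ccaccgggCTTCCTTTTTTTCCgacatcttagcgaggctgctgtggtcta
Rps6, chr4:86857348-86857397, minus strand: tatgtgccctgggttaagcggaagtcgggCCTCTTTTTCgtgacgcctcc

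The pyrimidine run is plain in Rpl35, where it is 18 bases long, and in Rps6, where it is 10, while the Rpl41 window at this annotated start holds no run of 6. A run of at least 8 within 20 bases of the start was found in 43.1% of the 58 promoters, against 15.9% of the 27025 promoters in the table. The word CTCTTTC, searched on both strands over all 300 bases, was in 27.6% of them and in 8.01% of all promoters, and CCGGAAG, a core to which ETS factors are known to bind, was in 41.4% and 9.12%. The TATA word TATAAA was in 10.3% against 14.2%, and the E-box CACGTG, which Myc can bind, in 5.17% against 7.24%. These are matches of letters and do not show that a factor binds there.

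The 78 genes took between 1.52% and 2.59% of the reads counted on genes in a library, at depths of 5693049 to 18682437 reads. In Ly6Chi libraries of vehicle mice 11 to 15 the share was 1.95%, 2.31%, 2.13%, 2.10% and 2.14%, and in those of Ac-6-FP mice 16 to 20 it was 2.59%, 2.10%, 2.06%, 2.35% and 2.18%. In Ly6Clo libraries it was 1.91%, 1.92%, 1.94%, 2.11% and 1.92% for vehicle and 2.01%, 1.82%, 1.90%, 1.64% and 1.52% for Ac-6-FP. The share was higher in the Ly6Chi library of 9 of 10 mice, the exception being mouse 14, and the lowest shares were those of the Ly6Clo libraries of mice 19 and 20. The 10 genes with the most reads took 7.36% to 8.61% of the reads in Ly6Chi libraries and 9.37% to 15% in Ly6Clo libraries, and their part in the lower share of the ribosomal protein genes there was not tested.

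**Figure D1:**
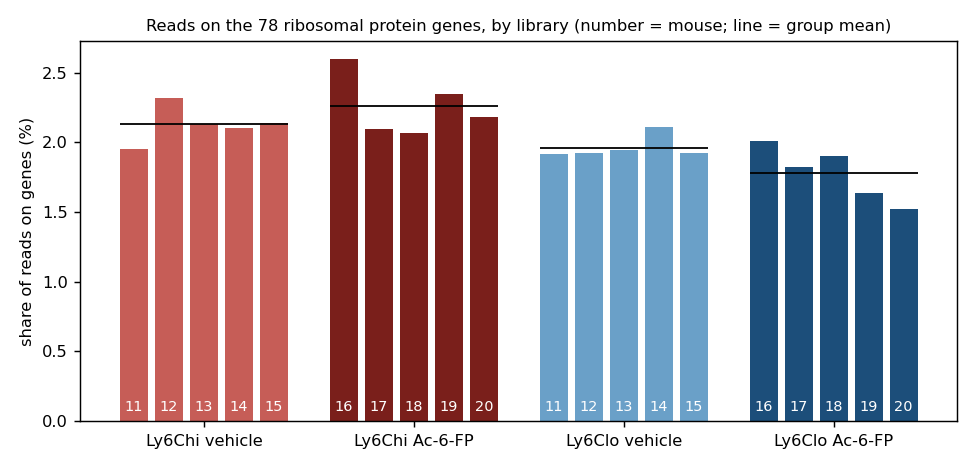
Share of the reads on genes (percent, axis from 0) that fell on the 78 ribosomal protein genes, 1 bar per library with its mouse number, grouped by subset and treatment, with a line at each group mean. Ly6Chi bars lie between 1.95% and 2.59% and Ly6Clo bars between 1.52% and 2.11%.

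Of the 78 genes, 77 reached a mean of 10 normalized counts in at least 1 group and were tested. Normalized counts are reads divided by a size factor of the library, and differences are given on the log2(normalized count + 1) scale, without division by gene length. The gene not tested, Rpl10l, a retrocopy of Rpl10 used in testis, was at 0 in all 20 libraries, where up to 3 reads could still have been missed by chance, a limit that covers counting error only. No library was at 0 for 72 of the 77 genes.

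The ribosomal protein genes varied little between mice of a group. The SD of log2 values within groups had a median of 0.28 over the 77 genes, against 2.11 over all 17248 genes tested and 1.94 over the 7267 genes with a mean of at least 100. Neither set was matched to the 77 genes in level or in libraries at 0. The part of these in the contrast was not tested. It was under 0.5 for 70 of the 77, which is 90.9%, compared with 10.3% of all genes tested. Among the steadiest were Rps26 (SD 0.147) and Rps9 (0.15), both of the small subunit. The genes that varied most were Rps12 (3.34), the tissue-restricted paralogs Rpl3l (2.56) and Rpl39l (1.47), Rps4l (2.39) and Rpl12 (1.82), each of which has libraries at 0.

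Between the subsets, 2 of the 77 genes passed the test, 1 in each direction. Rpl41, which encodes the smallest protein of the 60S subunit, was higher in Ly6Chi cells. Among all 17248 genes the test called 1.76% higher in Ly6Chi and 3.44% higher in Ly6Clo, so that 1 of 77 in each direction (1.3%) is no more than the background. With total count scaling 7 were called, all 7 higher in Ly6Chi, which is 9.09% of the 77 against 5.49% of all genes called in either direction, and the median of all genes moved from -0.03 to 0.08.

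Rpl41 (chr10:128548110-128549168) had 4001, 5357, 4385, 4701 and 4464 normalized counts in the Ly6Chi libraries of vehicle mice 11 to 15 and 3276, 3972, 3224, 3867 and 3913 in their Ly6Clo libraries. In Ac-6-FP mice it had 5710.5, 4109, 3832, 4794 and 4296 in Ly6Chi and 4108, 3557, 2886, 2892 and 3015 in Ly6Clo. Ly6Chi was higher in all 10 mice. In vehicle mice the lowest Ly6Chi value lay just above the highest Ly6Clo value, while in Ac-6-FP mice the ranges overlapped through the Ly6Clo library of mouse 16. Rpl41 was 1.32 times as high in Ly6Chi (log2 difference 0.40, SE 0.0907, limma adjusted p = 0.0222), and no other gene of the table with a mean of 10 overlaps it.

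**Figure D2:**
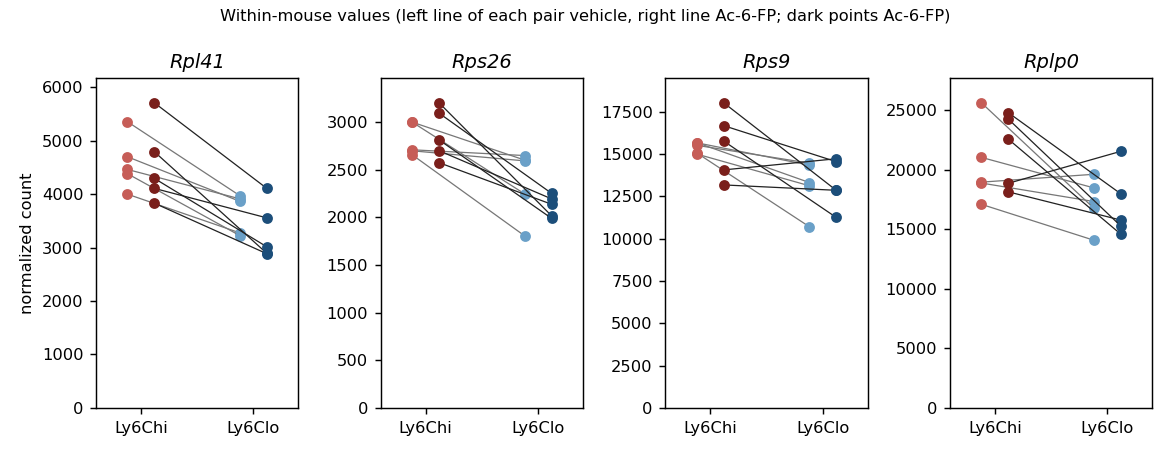
Normalized counts (linear axis from 0) of Rpl41, Rps26, Rps9 and Rplp0 in the Ly6Chi and Ly6Clo library of each of 10 mice, joined by a line per mouse, with light points for vehicle and dark points for Ac-6-FP. Rpl41 and Rps26 are higher in Ly6Chi in 10 of 10 mice, Rps9 in 9 of 10 and Rplp0 in 8 of 10.

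Few other ribosomal protein genes came near the threshold. Without adjustment, 8 of the 77 (10.4%) had p under 0.05, against 16.7% of all genes tested. Beside Rpl41 they included Rps9 (log2 difference 0.23, limma adjusted p = 0.0742), Rplp0 (0.29, adjusted p = 0.0789), Rps26 (0.35, adjusted p = 0.124), Rpl4 (0.30, adjusted p = 0.229) and Rps2 (0.56, adjusted p = 0.267). Rplp0 encodes the scaffold of the P stalk, the arm of the large subunit that calls in elongation factors, and Rps2, Rps9 and Rps26 encode small-subunit proteins. All those just listed had higher fitted levels in Ly6Chi, but none passed the test. Of these, Rps9 is also covered by an unnamed gene with near-identical values (0.896 times its mean).

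Rps26 had 2700.2, 3001, 2659, 2711 and 3002 normalized counts in the Ly6Chi libraries of vehicle mice 11 to 15 and 2594, 2603, 1807, 2650.3 and 2248 in their Ly6Clo libraries. In Ac-6-FP mice 16 to 20 the values were 3095, 2701, 2575, 3204 and 2814 in Ly6Chi and 2253, 2195, 2139, 2017 and 1991 in Ly6Clo. Ly6Chi was higher in all 10 mice and the ranges did not overlap within either treatment. Rpl36a was also higher in Ly6Chi in every mouse (log2 difference 0.59, SE 0.296, limma adjusted p = 0.34), with its lowest value, 98.1, in the Ly6Clo library of mouse 13. Counting Rpl41, 3 of the 77 (3.9%) were higher in Ly6Chi in every mouse, against 1.87% of all genes, and 1 of the 77 (1.3%) was higher in Ly6Clo in every mouse, against 1.98%.

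The median log2 difference of the 77 genes, Ly6Chi minus Ly6Clo, was 0.11, with 54 above 0 and 23 below. The medians of single mice had an SD of 0.159, a spread between mice and not the error of the 0.11. The median of all genes tested was -0.03 and that of genes with a mean of at least 100 was 0.16, and no test was made of the group. Large-subunit genes had a median of 0.12 (34 of 45 above 0) and small-subunit genes one of 0.09 (20 of 32 above 0). The 95% interval of the difference stayed within 2-fold either way for 69 of the 77 genes and within 1.5-fold for 45.

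Over 71 genes with transcripts of 367 to 5130 bases, Spearman's rho of length with the subset difference was -0.14, with the Ac-6-FP difference 0.253 in Ly6Chi and 0.295 in Ly6Clo, a description across genes that share libraries.

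**Figure D3:**
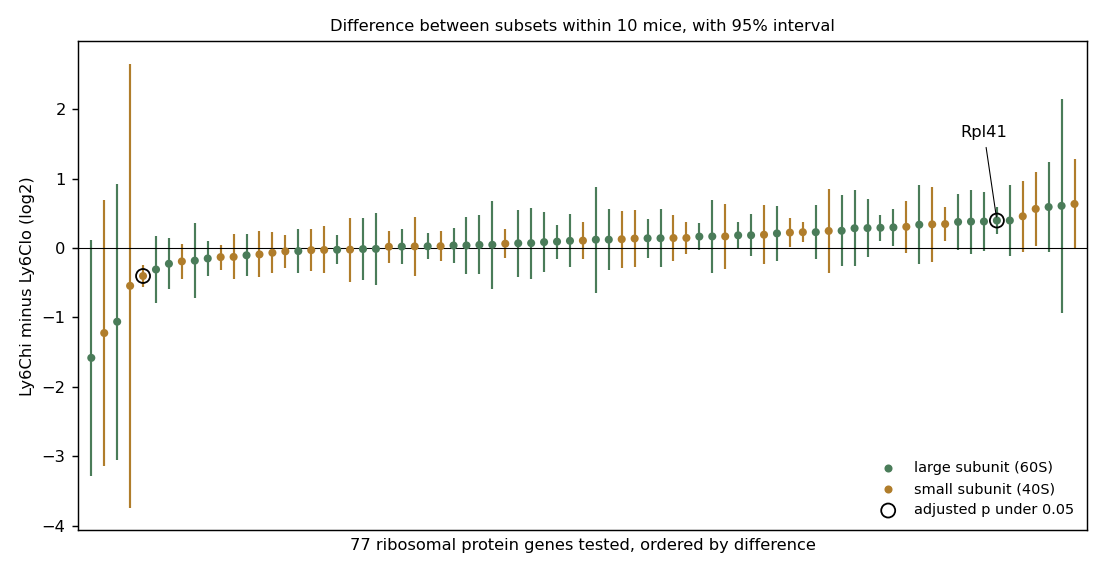
Fitted difference Ly6Chi minus Ly6Clo (log2) with its 95% interval for the 77 ribosomal protein genes tested, in order of size, green for large-subunit and ochre for small-subunit genes. Circles mark the 2 genes past the threshold, with Rpl41 at 0.40 named, and the long bars at both ends belong to genes with libraries at 0 or with few reads.

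The largest positive fitted differences were those of Rps29 (0.64, SE 0.299), Rpl12 (0.61, SE 0.71), Rpl36a, Rps2 and Rps28 (0.46, SE 0.238), and the largest negative ones included those of Rpl39l (-1.58, SE 0.785), Rps4l (-1.22, SE 0.881), Rpl3l (-1.06, SE 0.917) and Rps12 (-0.54, SE 1.48). None of those named here passed the test. Rps29, a zinc-binding protein of the 40S head, ranged from 180 to 777 normalized counts in Ly6Chi and from 132 to 398 in Ly6Clo, so that the subsets overlapped widely.

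None of the members listed for their roles passed the threshold between the subsets. For the other P-stalk proteins the log2 difference was -0.15 for Rplp1 and 0.04 for Rplp2. Rpsa, which also serves as a laminin receptor, had 0.31. Rpl5 (0.40, SE 0.236) and Rpl11 (0.09), which with 5S rRNA bind Mdm2 when ribosome assembly is disturbed, and Rpl10 (0.38, SE 0.196), which completes the 60S subunit, did not pass the test. The others were Rps6 (0.03), Rps19 (-0.13), a gene mutated in Diamond-Blackfan anaemia, Rps25 (0.06), Rpl3 (0.14), Rpl22 (-0.01), Rpl38 (0.05), Rps4x (-0.07) and Rps27a (0.19), which is made as a fusion to ubiquitin.

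The subset difference was also fitted within each treatment. In vehicle mice limma called 0 of 77 higher in Ly6Chi and 1 of 77 higher in Ly6Clo, against a background of 0.806% higher in Ly6Chi and 1.54% higher in Ly6Clo. In Ac-6-FP mice 0 of 77 were called, against 2.94% of all genes. Rpl41 had a difference of 0.33 in vehicle mice (limma adjusted p = 0.282) and of 0.47 in Ac-6-FP mice (limma adjusted p = 0.0867). The change of its subset difference with treatment was tested itself and did not pass (0.14, SE 0.18).

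Mouse by mouse, the number of ribosomal protein genes higher in the Ly6Chi library was largest in 3 mice, all given Ac-6-FP. In mice 16, 19 and 20, 67, 69 and 66 of the 77 genes were higher in Ly6Chi, with median log2 differences of 0.25, 0.34 and 0.28. In the other 7 mice 31 to 48 genes were higher, with medians from -0.10 to 0.14, and the Ac-6-FP mice 17 and 18, at 0.04 and -0.04, lay among the vehicle mice. The median fitted difference was 0.00 in vehicle mice (37 of 77 above 0) and 0.19 in Ac-6-FP mice (66 of 77 above 0). In mouse 16 it was the Ly6Chi library that stood high, with 75 of 77 genes above their mean over the libraries, and in mouse 20 the Ly6Clo library that stood low, with 13 of 77. Genes of a library are not independent of each other, and the 3 mice were not set apart by any label.

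With Ac-6-FP, no ribosomal protein gene passed the test in Ly6Chi cells. The call rate over all genes was 0.0754%, or 13 genes. At an unadjusted p under 0.05 there were 5 of 77 (6.49%), Rpl14, Rpl32l, Rps16, Rps4l and Rps6, against 8.73% of all genes, and for 0 of 77 did the groups not overlap, against 1.35%. On the recovered reads edgeR called 0 genes of all tested, while DESeq2 called 204 of 15736 (1.3%), 0 of them among the 77. The median log2 difference was 0.10, beside 0.35 for all genes tested, which was -0.01 with quantile normalization, and the 95% interval lay within 2-fold for 71 of the 77 genes and within 1.5-fold for 50.

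Rps6, the target of S6 kinase, had one of the larger differences. It lay near the third quartile of the 77 genes (0.262), above their median of 0.0993. Its Ly6Chi libraries had 7924, 8858, 7694, 6663 and 8495 normalized counts with vehicle and 10769.6, 8239, 9151, 9523 and 9896 with Ac-6-FP. Only the vehicle libraries of mice 12 and 15 reached into the Ac-6-FP range. The log2 difference was 0.26 (SE 0.0977, limma adjusted p = 0.543). In Ly6Clo cells it was -0.10 (SE 0.119).

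The other large fitted differences in Ly6Chi were not past the threshold either. The highest were Rps4l (4.11, SE 1.71), Rps12 (1.49, SE 2.17), Rpl3l (1.29, SE 1.46), Rps2 (0.60, SE 0.512) and Rpl13 (0.52, SE 0.372), the lowest Rps29 (-0.50, SE 0.338), Rpl38 (-0.33, SE 0.17), Rps28 (-0.31, SE 0.145), Rpl37a (-0.22, SE 0.154) and Rpl35 (-0.20, SE 0.162). Rps4l was at 0 in the Ly6Chi vehicle libraries of mice 12, 13 and 15, so its fitted difference rests on these zeros. That difference was 0.91 in DESeq2, which left out mouse 15, and 6.09 with a pseudocount of 0.1. The value of Rps29 was -0.71 without mouse 15 and -0.27 without mouse 18.

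In Ly6Clo cells 0 of 77 passed the test as well, against 0.0522% or 9 of all genes, while on the recovered reads edgeR called 0 of all genes and DESeq2 113 of 16829 (0.671%), 0 of them among the 77. At an unadjusted p under 0.05 there were 10 of 77 (13%), against 9.31% of all genes. Rps27l, Rpl35, Rplp1, Rps14, Rps15a and Rps25 had lower fitted levels with Ac-6-FP, and Rpl13, Rpl18, Rpl39l and Rps4l higher ones. Rpl39l was at 0 in every library of the other 3 groups and was tested only because of its Ly6Clo Ac-6-FP values, so its difference follows from the filter, and without it the count is 9 of 76 (11.8%). The groups did not overlap for 3 of the 77 (3.9%), Rps15a and Rps4l among them, against 1.5% of all genes. The median log2 difference was -0.04, beside 0.91 for all genes tested. The latter was 0.35 without mouse 13 and 0.02 with quantile normalization, under which the median of the 77 genes was -0.19. The 95% interval lay within 2-fold for 62 genes and within 1.5-fold for 32.

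Rps27l, a p53-induced paralog of Rps27, had the largest negative fitted difference. In Ly6Clo libraries it had 1931, 3748, 5092, 5085 and 2392 normalized counts with vehicle and 2367, 2316, 2134, 1821 and 1350 with Ac-6-FP. The vehicle libraries of mice 12, 13 and 14 stood high, and those of mice 11 and 15 lay within or next to the Ac-6-FP range. The log2 difference was -0.79 (SE 0.31, limma adjusted p = 0.528), against 0.13 (SE 0.273) in Ly6Chi.

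Rpl35, which sits at the exit of the peptide tunnel, followed the same libraries. It had 6623, 10825, 11948, 12345 and 8275 normalized counts with vehicle and 8336, 6739, 6167, 6145 and 5105 with Ac-6-FP, again highest in mice 12, 13 and 14. Its log2 difference was -0.60 (SE 0.201, limma adjusted p = 0.528). The gene Wdr38, which overlaps Rpl35 on the other strand, had 0.0369 to 0.0607 times its value.

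Rpl18 ran the other way. It had 1941, 1027, 440.4, 1070.4 and 1156 normalized counts with vehicle and 2007, 2025, 1929, 1750.1 and 1835 with Ac-6-FP. The Ly6Clo vehicle library of mouse 11 lay within the Ac-6-FP range and the other 4 below it. The log2 difference was 0.91 (SE 0.338, limma adjusted p = 0.528), and without mouse 13 it was 0.60.

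The vehicle libraries of mice 12, 13 and 14, the highest for Rps27l and Rpl35 and the lowest for Rpl18, are also the Ly6Clo libraries in which the fewest genes were detected. For Rpl18 the library of mouse 15, with 13527 genes detected, was low as well. That of mouse 13 had reads on 5343 genes, and 2765 of 6652 well-measured genes (median over libraries at or above 100) were at 0 in it. Genes detected differed between treatments by 3072 in Ly6Clo (two-sided exact permutation test over 5 against 5 mice, p = 0.159) and by 2618 in Ly6Chi (exact permutation p = 0.0794). After adding genes detected to the fit, the log2 difference in Ly6Clo was -0.36 for Rps27l, -0.36 for Rpl35, -0.23 for Rplp1 and 0.46 for Rpl18. The part of genes detected in these differences was not tested further.

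**Figure D4:**
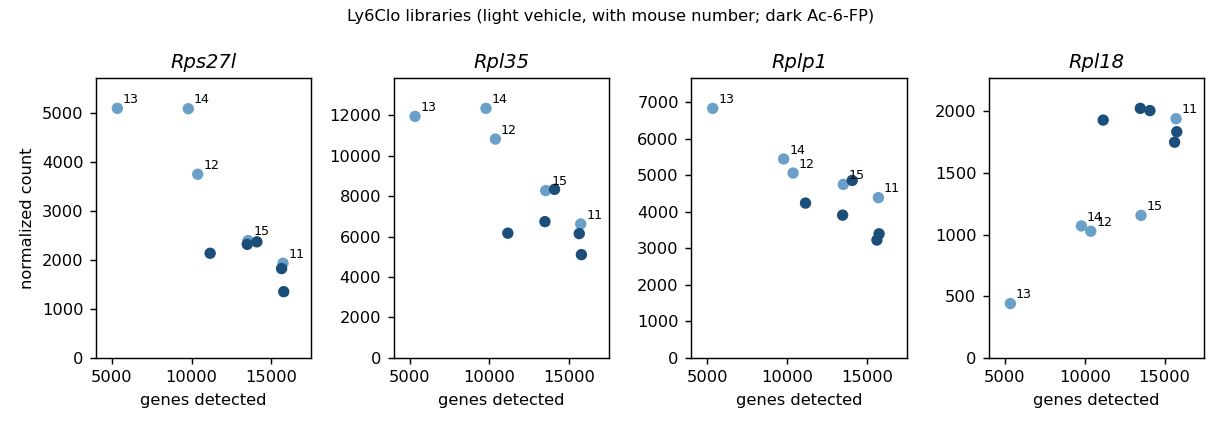
Normalized counts (linear axis from 0) of Rps27l, Rpl35, Rplp1 and Rpl18 in the 10 Ly6Clo libraries against the number of genes detected, with light points and mouse numbers for vehicle and dark points for Ac-6-FP. The libraries of mice 12, 13 and 14 lie at the left, high for Rps27l, Rpl35 and Rplp1 and low for Rpl18.

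Among the other extremes in Ly6Clo, Rpl23a (-0.79, SE 0.365), Rpl31 (-0.52, SE 0.282) and Rpl17 (-0.43, SE 0.197) were lowest beside Rps27l and Rpl35, and Rps4l (3.29, SE 1.18), Rpl39l (3.16, SE 1.24), Rpl12 (1.3, SE 1.51) and Rpl13 (0.84, SE 0.367) were highest beside Rpl18. None passed the test. Rplp1, an acidic P-stalk protein, had 4381, 5055, 6825, 5439 and 4744 normalized counts with vehicle and 4853, 3903, 4233, 3222 and 3392 with Ac-6-FP, a log2 difference of -0.43 (SE 0.16, limma adjusted p = 0.528).

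**Figure D5:**
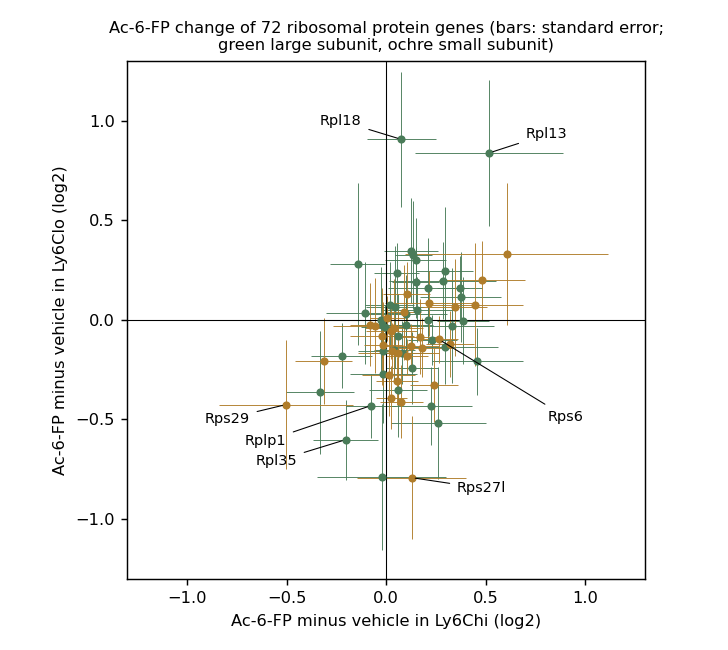
Ac-6-FP minus vehicle (log2) in Ly6Chi (horizontal) and Ly6Clo (vertical) for the 72 ribosomal protein genes with no library at 0, with standard errors as bars, green for large-subunit and ochre for small-subunit genes. Most points crowd around 0, with Rps27l at -0.79 and Rpl18 at 0.91 on the Ly6Clo axis, and none passed the test on either axis.

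The difference between the Ac-6-FP changes of the subsets, the contrast of the study, was past the threshold for 0 of 77 genes and for 0% of all genes tested in limma, and edgeR called 0 as well, while DESeq2 called 224 genes, 0 of them among the 77. At an unadjusted p under 0.05 there were 7 of 77 (9.09%), among them Rps27l, Rpl35, Rps14, Rpl39l, Rpl18 and Rps15, against 4.87% of all genes, and without Rpl39l the count is 6 of 76 (7.89%). It uses the libraries of both within-subset comparisons and is not independent of them. Its median was 0.18 over the 77 genes, 56 of them above 0, and -0.27 over all genes, and its 95% interval lay within 2-fold for only 41 of the 77. The median of the 77 genes was 0.295 with quantile normalization. The Ly6Clo median of all genes, which enters this contrast, shifted without mouse 13 and with quantile normalization, as given above.

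Rps27l had the largest difference of changes among genes with no library at 0, 0.92 (SE 0.283, unadjusted p = 0.00741, adjusted p = 0.83 in limma), and Rpl18 the most negative, -0.83 (SE 0.365). The others at the ends were Rpl3l (1.70, SE 1.84), Rps12 (1.57, SE 3.05), Rps4l (0.82, SE 1.82), Rpl31 (0.78, SE 0.486), Rpl39l (-3.16, SE 1.34), Rpl12 (-0.996, SE 1.45), Rpl36a (-0.42, SE 0.6) and Rpl13 (-0.32, SE 0.362). For 2 of the 77 genes (2.6%), Rpl35 and Rps25, the within-mouse differences of the treatments did not overlap, against 0.806% of all genes. Neither passed the test (Rpl35 0.40, SE 0.135; Rps25 0.36, SE 0.165; limma adjusted p = 0.83 for both).

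Rps25, a small-subunit protein used by several viral internal ribosome entry sites, had 3638, 4129.7, 4529, 3845 and 3881 normalized counts in the Ly6Chi libraries of vehicle mice 11 to 15 and 4155, 4324, 4846, 4388 and 3994 in their Ly6Clo libraries. In Ac-6-FP mice 16 to 20 it had 4694, 4367, 4153, 4413 and 3271 in Ly6Chi and 4122, 3442, 3699.7, 3495 and 2878 in Ly6Clo. Each vehicle mouse was higher in Ly6Clo and each Ac-6-FP mouse higher in Ly6Chi, a pattern searched for in all 77 genes tested. Trappc4, which overlaps Rps25 on the opposite strand, had 0.475 times its mean and up to 0.749 times its value in a library, and without counting by strand reads in the overlap cannot be told apart.

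Several genes of the family have copies. Rpl39l was above 0 in the Ly6Clo libraries of mice 17, 19 and 20 (62.8, 22.3 and 38.0 normalized counts, at most 56 reads) and at 0 in the other 17, while Rpl39 was above 0 in all 20. Rpl3l, known from heart and skeletal muscle, was at 0 in 4 libraries and at most 153 normalized counts, beside 2413 to 3992 for Rpl3. Rps4l, which GENCODE M21 lists as a transcribed processed pseudogene on chromosome 6, had at most 344 normalized counts and was at 0 in 4 libraries, and its parent Rps4x lay between 2273 and 4588. Rpl32l is also listed as a processed pseudogene. Such copies can share reads with the parent gene, how reads with several matches were treated is not given in the sources used here, and their values are therefore uncertain.

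Overlapping genes limit what can be assigned to some of the family. Of the 78 genes, 9 are covered by a gene without a symbol whose mean lay between 0.786 and 1.18 times theirs and whose log2 values followed theirs over the 20 libraries (r of at least 0.92), among them Rpl7, Rpl14, Rpl17, Rpl35a, Rps3a1, Rps7 and Rps9. For 2 of the 9, Rpl35a among them, GENCODE M21 has a gene on the opposite strand. The sources do not state that reads were counted by strand, so reads from such a gene and from the ribosomal protein gene cannot be told apart. The same limit holds for Rpl5, where Fam69a on the opposite strand had 6.71 times its mean. Another 5 protein-coding genes that fit the naming rule appear only in rows with a second name. Of these Rps27, in a row with Rps27rt, had a log2 difference of -0.50 between Ly6Chi and Ly6Clo (SE 0.168, limma adjusted p = 0.126) and was higher in Ly6Clo in 9 of 10 mice, and Rpl13a, Rpl26, Rpl30 and Rpl34 had -0.26, -0.17, 0.34 and -0.14, none past the threshold.

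Genes that work with the ribosome were read from fixed lists, against the background of 1.76% of all genes called higher in Ly6Chi and 3.44% higher in Ly6Clo. Of 5 ribosomal genes outside the naming rule none passed the test in any comparison. Among these Fau, which encodes S30, had a log2 difference of 0.22 between the subsets. Of 17 translation factors with TOP mRNAs 2 passed, both higher in Ly6Clo, the helicase Eif4a2 (-1.61, adjusted p = 0.00288 in limma) and the elongation factor subunit Eef1g (-0.73, adjusted p = 0.0426). Of 36 ribosome biogenesis genes 1 passed, the snoRNP core gene Nop56, higher in Ly6Clo (-0.70, limma adjusted p = 0.0498). Of 74 mitochondrial ribosomal proteins 2 passed, both higher in Ly6Chi, Mrpl33 (0.55, limma adjusted p = 0.0144) and Mrpl28 (0.68, adjusted p = 0.0413). Of 22 genes of the mTORC1 pathway and Myc 1 passed, Lamtor4, a subunit of the Ragulator complex on lysosomes, higher in Ly6Chi (1.29, limma adjusted p = 0.0017).

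With Ac-6-FP none of these lists held a gene past the threshold in either subset, against 0.0754% of all genes in Ly6Chi and 0.0522% in Ly6Clo.

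The sort was checked by Ly6c2, which was 3.46 higher (log2) in Ly6Chi in 10 of 10 mice (limma adjusted p = 1.43e-07). The subsets also differed in markers of other cells. Summed markers of T and NK cells reached 0 to 981 normalized counts in Ly6Chi libraries and 23234 to 51330 in Ly6Clo libraries, with 4 of 6 tested markers called, among them Ncr1 and Klrb1c, although CD3+ cells were gated out, as were CD11c+ and Ly6G+ cells. Dendritic cell markers summed to 83.8 to 535 in Ly6Chi and 4702 to 19404 in Ly6Clo (2 of 6 called), and neutrophil markers to 9154 to 15696 and 10479 to 125710 (2 of 7 called higher in Ly6Clo and 1 higher in Ly6Chi). In the B cell (1 of 5), hepatocyte, endothelial and Kupffer cell lists (1 of 4 each) a single tested marker was called, higher in Ly6Clo, namely Cd79a, Apoa1, Clec4g and Marco. Erythroid markers summed to 219 to 10946 in Ly6Chi and 168 to 55102 in Ly6Clo (0 of 2 called). Markers of myeloid progenitors summed to 1837 to 14427 in Ly6Chi and 0 to 1786 in Ly6Clo (4 of 4 called). In bulk libraries fewer cells of a type and less RNA per cell cannot be told apart, and the part of these cells in the Rpl41 difference was not tested.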

How the data were processed

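RNA of 20 sorted samples from 10 mice was sequenced (NEBNext low-input kit, NextSeq 500). According to the methods and labels, the authors aligned reads with STAR 2.4.0 to mm10, counted them on constitutive regions of FAST DB genes and normalized with DESeq2. The deposited values are a signal, gene counts divided by 1 size factor per library. Dividing by each library's step gave whole reads for 99.98% of values in 19 libraries (tolerance 0.006). The Ly6Chi library of mouse 15, with a step of 0.989, also gave whole reads, for 100% of its values. Count tests that would use it still left out mouse 15, a choice made because the step is near 1.

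Genes with a group mean of at least 10 (17248) were tested as log2(normalized count + 1) with limma 3.58.1 in R 4.3.3, moderated with a trend over level, with Benjamini-Hochberg adjustment over all genes and a threshold of 0.05. Subsets were compared as within-mouse differences because both libraries came from 1 liver. The correlation of residuals within a mouse had a median of 0.0338. Treatments were compared as 5 against 5 mice. Nothing states separate batches.

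The genes, lists and tests were chosen with earlier results of these data known. Genes are named by rule: called genes, the 5 highest and 5 lowest differences per comparison, fixed members, paralog pairs, genes not tested, Fau and Ly6c2. Some genes are not reported here, and the counts include them. Rps15a, the genes with p under 0.05 and those of the lists were named after their values were seen, as were the overlapping genes. Alternatives were pseudocounts of 0.1 and 10, other filters and scalings, covariates, array weights, no pairing, edgeR 4.0.16, DESeq2 and leaving out each mouse. The fit was tested on simulated data. Python 3.11.15, pandas 2.3.3 and scipy 1.17.1 were used. Promoters are from RefSeq, gene positions from GENCODE M21.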

Additional observations from a re-analysis of the deposited data

Results flagged for a closer look

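The Ly6Clo vehicle library of mouse 14 had 2.108% of its reads on the ribosomal protein genes and stood apart from the other 4 vehicle libraries of that subset, which lay between 1.91% and 1.94%. It was the only one of 76 groups of 5 values examined to hold such a sample, and chance alone sets 1 apart in about 20.

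For Rps25 every vehicle mouse was higher in Ly6Clo and every Ac-6-FP mouse higher in Ly6Chi. The difference of the changes was 0.36 on the log2 scale, and its test did not pass (limma adjusted p = 0.83). All 77 genes tested were searched for such a reversal in either direction, and Rps25 was the only 1 found. The share of all genes with such a reversal was not counted.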

How the results depend on the processing

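Rpl41 passed the test under all 12 alternatives and without each of the 10 mice in turn (adjusted p from 0.0129 to 0.0351). The number of ribosomal protein genes called between the subsets, 2, was 4 with quantile normalization, TMM scaling or genes detected as a covariate, 7 with total count scaling, 1 in edgeR, 6 in DESeq2 and 3 of 75 when a group mean of 100 was required, and 2 to 3 without 1 mouse. Higher in Ly6Chi were 3 of each 4, 7 of 7, 1 of 1, 5 of 6 and 2 of 3. Of all genes, 5.19% were called by the reported test, 6.42% with quantile normalization, 5.24% with TMM scaling, 9.87% with the covariate, 5.49% with total count scaling, 2.71% in edgeR, 9.21% in DESeq2 and 10.8% with that filter. Total count scaling moved the median of all genes from -0.03 to 0.08 and that of the ribosomal protein genes from 0.11 to 0.25. Without a replicate block, the fit that ignores the mouse, 2 of the ribosomal protein genes were called between the subsets and 0 for the difference of changes. Of all genes it called 5.52% between the subsets and 3 genes (0.0174%) for the difference of changes.

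With Ac-6-FP 0 were called in either subset under every alternative and without each mouse. Under the alternatives 0% to 1.3% of all genes were called in Ly6Chi and 0% to 0.671% in Ly6Clo, the most by DESeq2. The median in Ly6Clo, -0.04, was -0.19 with quantile normalization and -0.12 to -0.03 without 1 mouse. It was 0.02 to 0.16 in Ly6Chi, 0.13 to 0.24 for the difference of changes and 0.08 to 0.13 between the subsets. The study's own criterion takes unadjusted p-values, a fold change of at least 1.5 and vehicle means without their spread. Applied to the log2(normalized count + 1) values used here, it gave 7 of the 77 (9.09%) a difference of changes, against 24.3% of all genes tested. The study chose expressed genes by another filter, so these shares are not those of its full procedure. The causes were not tested. Genes with libraries at 0 are uncertain, and so are many others in the Ly6Clo vehicle library of mouse 13. That library had 5693049 reads and 2765 well-measured genes at 0, and the Ly6Clo library of mouse 14 had 14265978 reads and 784. The part of depth in this was not tested.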
